A study of Caenorhabditis elegans with 3 samples.

Results

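The ttr genes of Caenorhabditis elegans encode transthyretin-related proteins, a nematode family of small and mostly secreted proteins. Here the family was read as every gene whose symbol is ttr with a number and which has at least 1 Affymetrix probe set (a group of short probes against 1 transcript) annotated to it alone, with the brightest probe set over the arrays standing for the gene. That rule gave 40 ttr genes out of 17118 genes on the array, read by 41 of 20766 such probe sets. The RefSeq gene table lists 59 ttr genes. A further 6 (ttr-3, ttr-4, ttr-30, ttr-40, ttr-49 and ttr-59) shared a probe set with another member, and 13 had no probe set in the annotation, among them ttr-11 and ttr-33, so these 19 are outside the 40.

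Transthyretin carries thyroid hormone in vertebrate blood, and the worm proteins have a related fold but are not known as hormone carriers. The family is far larger in nematodes than the single transthyretin gene of mammals, and its proteins are prominent among those that parasitic nematodes release. The best studied worm member is TTR-52, a secreted protein that binds phosphatidylserine exposed on dying cells and bridges it to the engulfment receptor CED-1. For ttr-33, a role in protecting dopamine neurons from oxidative damage is known. For most of the other genes described here no role is stated.

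RNA came from whole larvae of the wild-type strain N2 (Bristol), labelled as the first larval stage (L1), hatched from bleached parents that had been kept at 20 °C on Escherichia coli OP50. The 3 groups had 1 array each. Control larvae were untreated, bio-electrosprayed larvae were kept as the controls were but passed through a needle with a voltage applied, and heat-shocked larvae, the positive control, were held at 30 °C for 24 h. The question was how the transcripts of sprayed larvae compare with those of untreated and of heat-stressed ones. With no replicate in any group, no difference below has a replicate check and no test or p-value is given; the number of arrays limits the precision.

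The levels are the authors' GCRMA values, taken as log2, for 22625 probe sets per array with medians from 3.15 to 3.19. A gene was compared when either array of the pair showed it brighter than that array's median, and a difference was counted when it was at least 2-fold (1 on the log2 scale). On the heat shock array hsp-16.2, the classic heat-inducible small heat shock protein gene, stood at 9.55 against 3.03 on the control array. The 18 hybridization spike-in probe sets, which read transcripts added in the assay, had a median difference from control of −0.53 on the heat shock array and −0.19 on the bio-electrospray array. Where 1 gene had at least 2 probe sets above the filter, the gap between the differences of the brightest 2 was taken. This gap had an SD of 0.44 (heat shock against control, 2024 genes) and 0.16 (bio-electrospray against control, 1947 genes). It is a view of technical spread that leaves out differences between cultures. Yolk genes vit-2, vit-5 and vit-6, markers of adults, lay at or below 3.07 on all 3 arrays. Another adult marker, col-19, passed the filter but lay near the array medians. It was at 3.25 in control, 3.26 in sprayed and 3.15 in heat-shocked larvae. Of 5 sperm genes 4 were above the filter.

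On the control array 30 of the 40 ttr genes (75%) lay above the median of all probe sets, against 49.6% of all genes. In sprayed larvae the count was 31 and in heat-shocked larvae 30. The same 30 genes were above the median on all 3 arrays, and ttr-52 was so on the bio-electrospray array only, by a margin of less than 0.01. The other 9, ttr-9, ttr-12, ttr-13, ttr-14, ttr-19, ttr-22, ttr-28, ttr-50 and ttr-56, stayed between 2.18 and 3.12 on every array, where a GCRMA level says little about the amount of transcript. A probe set's brightness also depends on its probes, so the order of levels between ttr genes is not read as an order of abundance.

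**Figure D1:**
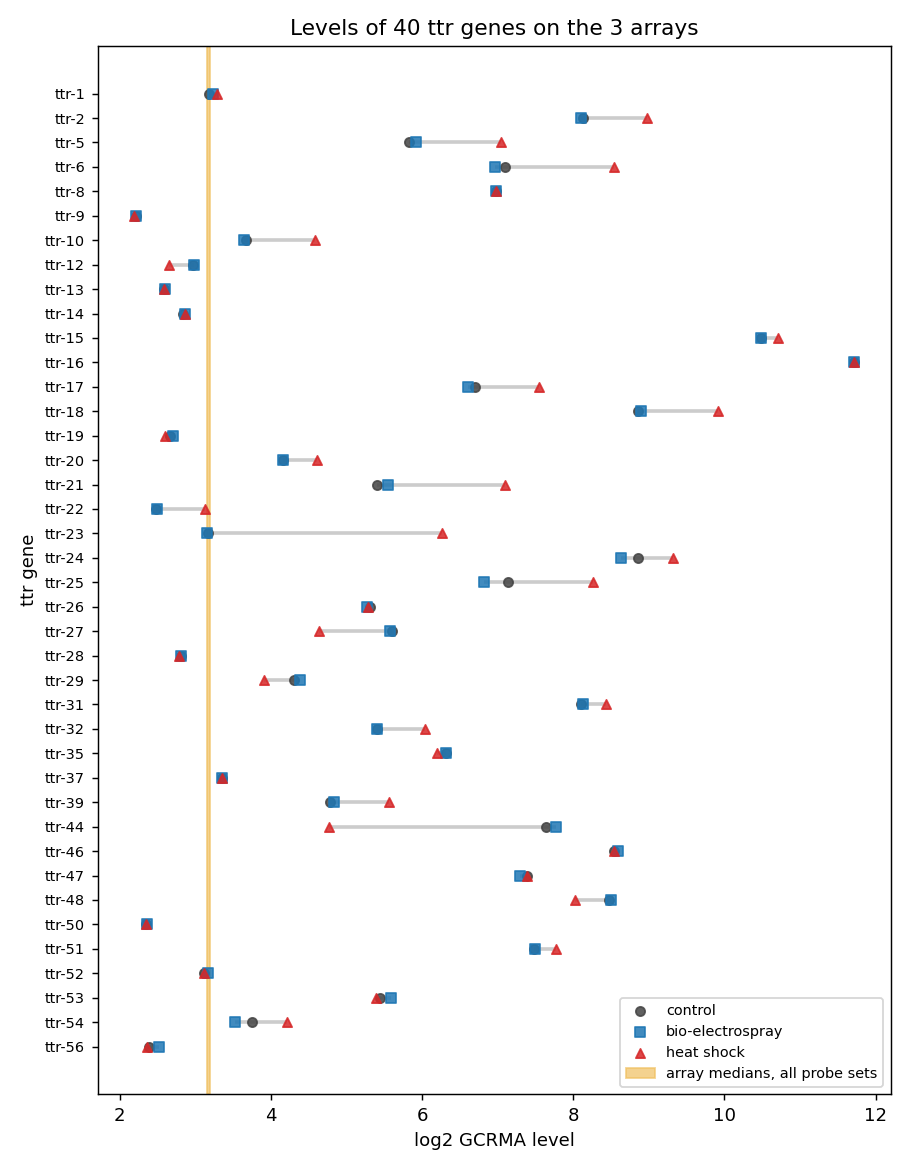
Log2 GCRMA level (x axis) of each of the 40 ttr genes (y axis, by gene number) on the control, bio-electrospray and heat shock arrays, 1 point per array, with a grey line joining lowest and highest and a band at the array medians over all probe sets. Control and bio-electrospray points nearly coincide, while the heat shock point of ttr-23 lies far to the right and that of ttr-44 far to the left.

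Several bright members had nearly the same level in all 3 groups. The gene ttr-16 was at 11.72 in control larvae and 11.71 in both other groups. For ttr-46 the levels were 8.54, 8.59 and 8.54 on the control, bio-electrospray and heat shock arrays, and for ttr-8 they were exactly equal at 6.97. With the deposited levels these 3 genes thus moved by less than the SD between probe sets of 1 gene under both treatments. With the arrays centred on the spike-in probe sets, ttr-16 and ttr-46 were beyond it, and so was ttr-8, which takes the same shift. The differences of ttr-16 and ttr-46 were then both 0.53 after heat shock, and 0.18 and 0.24 after spraying. The same centring moved the median of all genes to 0.53 and 0.188. The gene ttr-15 stood at 10.48, 10.48 and 10.70, and ttr-48 at 8.47, 8.50 and 8.03. Exactly equal values are common in this table: 8 of the 40 ttr genes (20%) had the same value on the bio-electrospray and control arrays, against 27.9% of all probe sets, and 6 (15%) on the heat shock and control arrays, against 14.0%.

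Bio-electrospray left every ttr gene within 2-fold of the control. None of 31 ttr genes above the filter was at least 2-fold higher, where 0.255% of 8613 genes were, and none was at least 2-fold lower, where 0.0464% were. With so small a background, a count of 0 among 31 genes says little about the family. The median difference was 0 for the ttr genes and 0 for all genes, and 30 of the 31 (96.8%) lay within 0.25 of the control, against 89.6% of all genes. The exception was ttr-25, at 6.82 against 7.14, a difference of −0.31.

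Lower values after spraying were also read from ttr-24, the chromosomal neighbour of ttr-25, at 8.62 against 8.86. Its second probe set gave 7.55 against 7.66, so the difference was −0.24 in one and −0.11 in the other. The gene ttr-54 was at 3.52 against 3.75, and ttr-6 at 6.97 against 7.10. The highest positive differences were 0.15 each for ttr-53 and ttr-21 and 0.14 each for ttr-44 and ttr-56. The SD of 0.16 is that of a gap between 2 probe sets of 1 gene, so it may be wider than the spread of 1. With the deposited levels the positive values are just inside it. On the lower side ttr-25, ttr-54 and the brighter, possibly shared probe set of ttr-24 are outside it. With spike-in centring, which moved the median of all genes to 0.188, this turned around: ttr-25 was at −0.13, ttr-24 at −0.05 and ttr-54 at −0.04, ttr-6 became positive at 0.06, and ttr-53, ttr-21 and ttr-44 were at 0.34, 0.34 and 0.33. Which side of that SD these small differences lie on thus depends on the centring. For ttr-54, whose levels were not far above the array medians, it also depends on the floor. With 16 added to the linear levels its difference was −0.1.

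After heat shock ttr genes differed from control in both directions. The genes ttr-23, ttr-21, ttr-6, ttr-5, ttr-25 and ttr-18 were at least 2-fold higher than in control larvae, and ttr-44 was 7.29-fold lower. These 6 higher genes are 20.0% of the 30 above the filter, against 8.9% of 9010 genes, and the 1 lower gene is 3.33%, against 8.24% of all genes. All 30 were above the median on both arrays, so none entered through its heat shock level alone; among genes above the median on both arrays 7.1% were at least 2-fold higher. Counted over all 40 ttr genes without the filter, 6 were higher (15%, against 4.69% of 17118 genes) and 1 lower (2.5%, against 4.33%). In whole larvae, fewer cells of a type and less RNA per cell cannot be told apart.

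The largest positive difference was that of ttr-23. Its level was 3.17 in control, 3.16 in sprayed and 6.26 in heat-shocked larvae, a difference of 3.09 or 8.53-fold. Only the heat shock array was high. The difference exceeded that of 99.4% of the genes compared. The control level of ttr-23 lay just above the array median of 3.15, so the fold rests on how background was modelled, and with 16 added to the linear levels the log2 difference was 1.89.

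The gene ttr-21 stood at 5.40, 5.55 and 7.10 on the control, bio-electrospray and heat shock arrays, so it was 3.24-fold higher after heat. For ttr-6 the levels were 7.10, 6.97 and 8.53, a 2.71-fold higher level after heat. Both genes were well above the array median in all groups, with the heat shock array alone high. Levels of ttr-5 were 5.82, 5.92 and 7.05 in the same order, and the difference of heat shock from control was 1.23. Levels of ttr-25 were 7.14, 6.82 and 8.26, with a difference of 1.12, and those of ttr-18 were 8.85, 8.90 and 9.92, with a difference of 1.06. These last 3 genes passed the 2-fold threshold narrowly, and the probe set of ttr-18 is marked as possibly shared between transcripts.

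The gene ttr-44 went the other way. It was at 7.63 in control larvae and 7.78 in sprayed larvae, but 4.77 in heat-shocked ones, a log2 difference of −2.87 from control. Only 0.97% of the genes compared had a lower difference. Its single probe set is likewise marked as possibly shared between transcripts, and no second one was there to set beside it. RefSeq lists 2 transcripts for ttr-44.

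Just outside the threshold lay ttr-27, at 5.60, 5.58 and 4.63 in the order of control, bio-electrospray and heat shock, with a difference of −0.97. When the arrays were quantile-normalized, or centred on their medians, ttr-27 also passed it, which made 6 higher and 2 lower. On the upper side the nearest were ttr-10 (0.91), ttr-2 (0.85), ttr-17 (0.84) and ttr-39 (0.79), none of which was 2-fold apart from control. With the arrays centred on the spike-in probe sets instead, the median of all genes moved to 0.53 and 11 ttr genes were at least 2-fold higher and 1 lower, against 21.1% of all genes higher and 4.18% lower. Relative to that shift the differences are those given above.

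**Figure D2:**
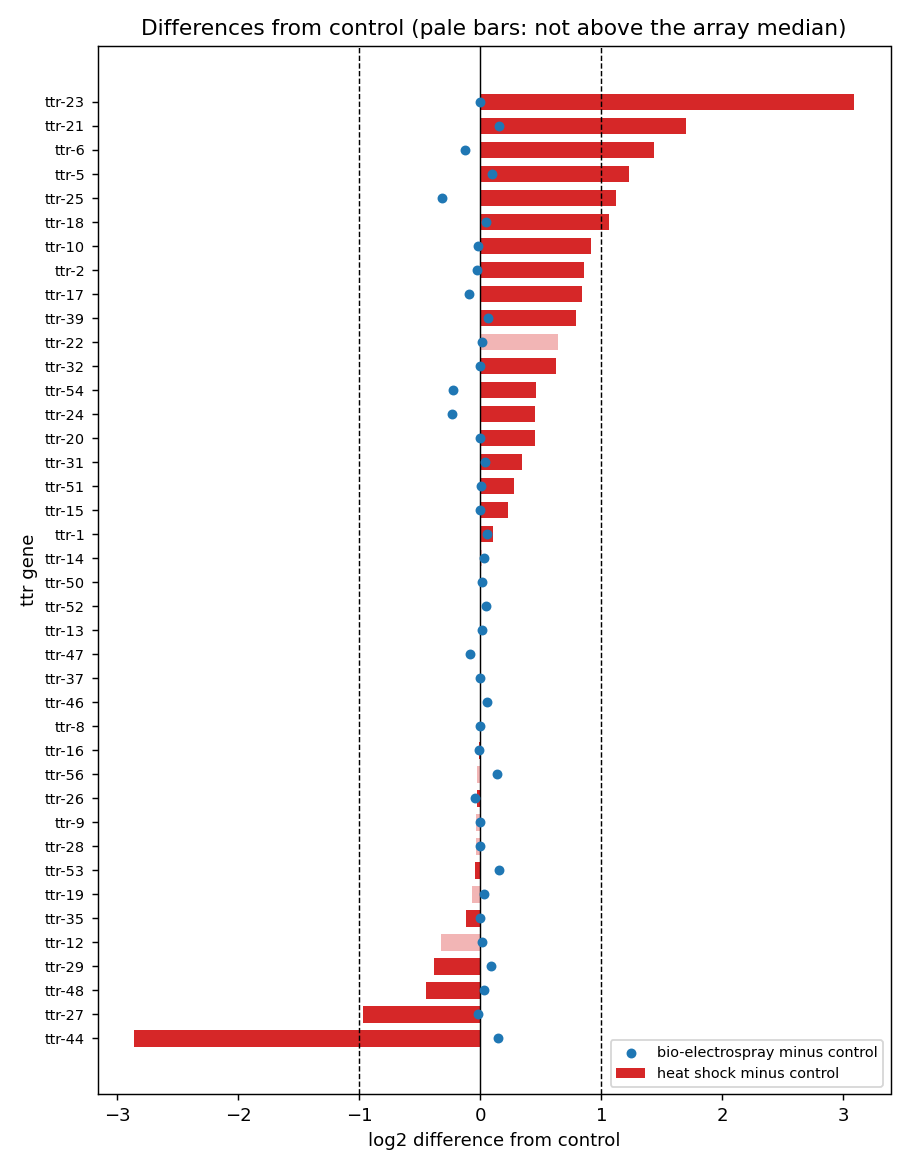
Log2 difference from control (x axis) of the 40 ttr genes (y axis), with bars for heat shock and points for bio-electrospray, pale bars for genes not above the array median in the heat shock comparison, and dashed lines at 2-fold. The 6 bars beyond the upper line are ttr-23, ttr-21, ttr-6, ttr-5, ttr-25 and ttr-18, ttr-44 alone lies beyond the lower one, and all points stay within −0.31 to 0.15.

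Between 0.5 and the 2-fold threshold the heat shock array had 5 of the 30 ttr genes on the higher side of control (16.7%, against 11.1% of all genes), ttr-2, ttr-10, ttr-17, ttr-32 and ttr-39, and 1 on the lower side, ttr-27 (3.33%, against 8.86%). With the genes beyond 2-fold included, the median over the 30 was 0.31, against 0 for all genes, with the quartiles at −0.01 and 0.85. Over all 40 ttr genes, dim ones included, the median was 0.0091, against −0.020 for all genes without the filter. Among the lower ones that did not reach 2-fold were ttr-48 (−0.45) and ttr-29 (−0.39), and the dim ttr-12 (−0.33); with spike-in centring these 3 turned positive, at 0.088, 0.15 and 0.21.

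**Figure D3:**
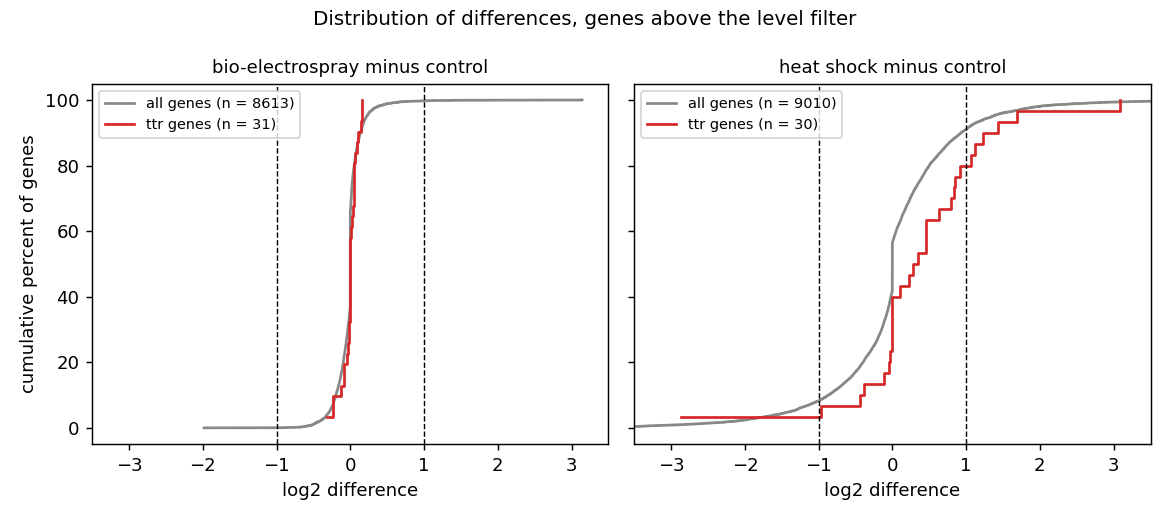
Cumulative percent of genes (y axis) against log2 difference (x axis) for bio-electrospray minus control (left) and heat shock minus control (right), for ttr genes and for all genes above the level filter, with dashed lines at 2-fold. On the left the curves lie close together around a median of 0; on the right the ttr curve lies to the right of that of all genes over most of its course, with medians of 0.31 and 0.

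Set against the sprayed larvae, the heat-shocked ones had the same 6 ttr genes at least 2-fold higher (19.4% of 31, against 8.8% of 9024 genes) and ttr-44 lower (3.23%, against 7.73%). This comparison shares the heat shock array with the one above, so it is no second observation. The differences were 3.10 for ttr-23, 1.56 for ttr-6, 1.55 for ttr-21, 1.43 for ttr-25, 1.13 for ttr-5, 1.02 for ttr-18 and −3.01 for ttr-44. In this comparison ttr-18 fell short of 2-fold with median centring (0.99) and, like ttr-5 (0.96), with 16 added to the linear levels. For ttr-25 the value against the sprayed array was 0.31 larger than against the control array, since it was lower after spraying.

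Other markers moved on the heat shock array with the ttr genes. Over all genes compared with control, 8.9% were at least 2-fold higher, 8.24% were lower and 43.5% had a positive difference. Of 8 moulting genes, which act in shedding the cuticle, 4 were at least 2-fold lower and none higher. For each list summed here, the linear levels were added and taken back to log2, so the brightest probe sets weigh most. For the moulting genes this summed level was 10.72 in control, 10.40 in sprayed and 9.53 in heat-shocked larvae. All 4 sperm genes above the filter were at least 2-fold lower, with summed levels of 8.21, 7.55 and 5.45 in that order over 5 genes. Of 4 germline genes above the filter 3 were at least 2-fold lower, with summed levels of 9.59, 9.53 and 8.73 over 5 genes. All 6 neuronal genes had positive differences, from 0.33 to 1.36 with a median of 0.73, and 1 of them was at least 2-fold higher. Most other tissue lists moved less evenly, and in lists this short a count of 1 says little. Counted at 2-fold, 1 of 6 hypodermal genes was higher and 1 lower (median 0.07). By the same count 1 of 6 intestinal genes was lower (median −0.06) and none of 5 body muscle genes was apart. In the pharynx list 2 of 5 were lower, in the excretory cell list 1 of 4 was higher and 1 lower, among glial genes none of 4 was 2-fold apart, and 2 coelomocyte genes were higher, of which lgc-26 was above the filter on the heat shock array only. The part of these shifts in the ttr differences was not tested.

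The genes around TTR-52, whose products expose, bind or take up phosphatidylserine on dying cells or carry out the death of the cell, were measured with their own probe sets in all 26 cases. The gene ttr-52 itself stood at 3.11 in control, 3.16 in sprayed and 3.11 in heat-shocked larvae, all near the array median. The receptor gene ced-1 was at 4.82, 4.82 and 4.86, and the adaptor gene ced-6 at 4.72 on every array. The gene nrf-5, which encodes a secreted lipid-binding protein that acts with TTR-52, was at 5.96 on every array. These 3 partner genes differed by less than 0.05 from control under both treatments with the deposited levels, while ttr-52 lay too near the floor for a change to be read.

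Of 22 engulfment and cell death genes above the filter, none was 2-fold apart after bio-electrospray. Over all genes 0.255% were at least 2-fold higher and 0.0464% lower, so this count says little. The 3 with the largest differences were the integrin gene pat-3 (−0.35), the cell fusion gene eff-1 (−0.19) and psr-1 (0.18), which encodes a phosphatidylserine receptor. After heat shock 1 of 23 was at least 2-fold higher and none lower, against 8.9% and 8.24% of all genes, with a median of 0.0035. The higher gene was egl-1, the activator of programmed cell death, at 3.61 on the heat shock array against 2.17 on the control array, the latter being dim. Its heat shock level alone brought it into the comparison.

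The worm also has transthyretin-fold proteins outside the ttr names, the enzymes 5-hydroxyisourate hydrolase of purine breakdown. Of their 2 genes R09H10.3 was at 7.72 in control, 7.74 in sprayed and 6.59 in heat-shocked larvae, lower by −1.13 after heat. The other, ZK697.8, stayed at or below 2.43 on every array. Among 4 genes of dopamine neurons, the cells studied with ttr-33, bas-1 alone was above the filter, at 6.19, 6.12 and 5.30, whereas dat-1, cat-2 and cat-1 lay below the array median throughout. None of the 4 was 2-fold apart under either treatment.

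The ttr genes lie on all chromosomes, per the RefSeq table (assembly WBcel235): 22 of the 59 on V, 12 on X, 10 each on III and IV, 3 on I and 2 on II. Of the 40 measured here 16 are on V, 9 on IV, 7 on III, 6 on X and 1 each on I and II. Chromosome V held ttr-23 and ttr-44, the ends of the heat shock range, and 3 of 11 ttr genes above the filter there were at least 2-fold higher and 1 lower, with a median of 0. On IV none of 7 was 2-fold apart, with differences from −0.04 to 0.84. On III 1 of 6 was 2-fold higher, on X 1 of 5, and the only one on II, ttr-18, was higher. Over all genes 8.9% were at least 2-fold higher and 8.24% lower. Shares over all genes of each chromosome were not counted, so no pattern by chromosome is read from these few genes.

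Many ttr genes are neighbours: 28 of the 59 fall into 12 runs of consecutive protein-coding genes that are all ttr genes, and 6 runs hold at least 2 genes measured by their own probe sets. Differences after heat shock varied between neighbours. In the run of ttr-24, ttr-25 and ttr-26 on V the differences were 0.45, 1.12 and −0.03, a spread of 1.15. Next to ttr-16 (−0.01) on IV, ttr-17 was higher by 0.84, from 6.70 to 7.54. In the run of ttr-27, ttr-28 and ttr-29 on V the outer 2 were lower, by −0.97 and −0.39, and ttr-28 was dim on all arrays.

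**Figure D4:**
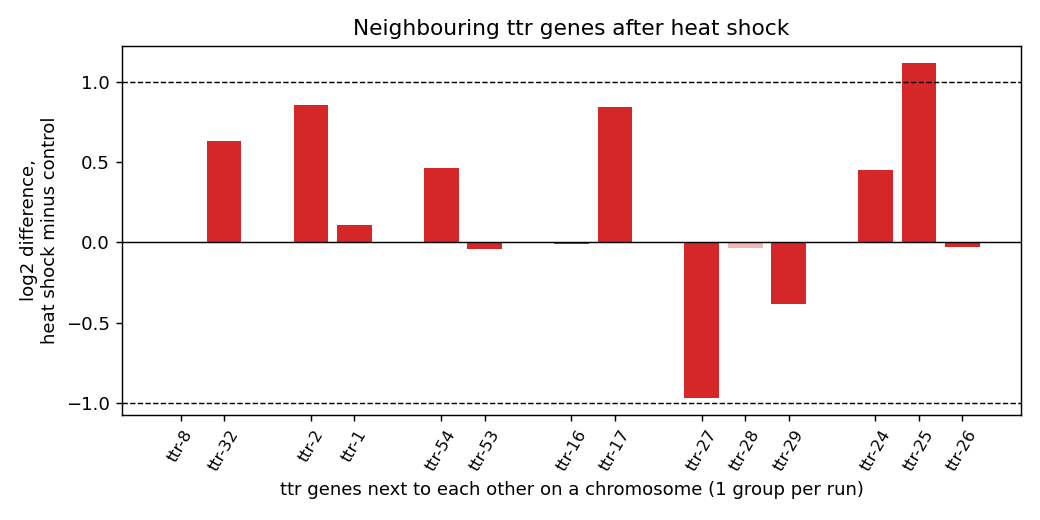
Log2 difference of heat shock from control (y axis) for ttr genes that stand next to each other in the RefSeq gene order (x axis, 1 group of bars per run), with dashed lines at 2-fold and a pale bar for ttr-28, which was not above the array median. Within a run the bars differ in height by 0.50 to 1.15, and ttr-25 alone is beyond 2-fold.

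The remaining pairs were alike in that 1 gene stood close to its control level. The gene ttr-8 did not differ (0) while ttr-32 was at 6.04 against 5.41, a difference of 0.63. On the same chromosome, III, ttr-1 differed by 0.11 and ttr-2 by 0.85, with ttr-2 at 8.98 against 8.12. The levels of ttr-1, 3.28 against 3.18, lay barely above the array medians, where a small difference says little. On IV, ttr-53 was at −0.04 and ttr-54 at 0.46. None of these 6 genes was 2-fold apart.

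The 7 differences beyond 2-fold after heat shock were recomputed under other normalizations, filters and treatments of probe sets. Level filters leave a gene's difference as it is. The probe set treatments could only keep or drop these genes, since none has a second probe set. Only the normalizations, spike-in centring and a constant added to the linear levels could change the differences. Under those settings all 6 higher genes stayed at least 2-fold higher. The lowest values were 1.02 for ttr-18, 1.03 for ttr-5, 1.04 for ttr-25, 1.34 for ttr-6, 1.39 for ttr-21 and 1.89 for ttr-23. The difference of ttr-44 lay between −2.92 and −2.31. Without probe sets that may be shared between transcripts, ttr-18 and ttr-44 could not be read. That left 5 of 26 ttr genes higher and 0 lower, against 9.93% and 7.72% of 6182 genes. With so few genes, a count of 0 lower says little.

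**Figure D5:**
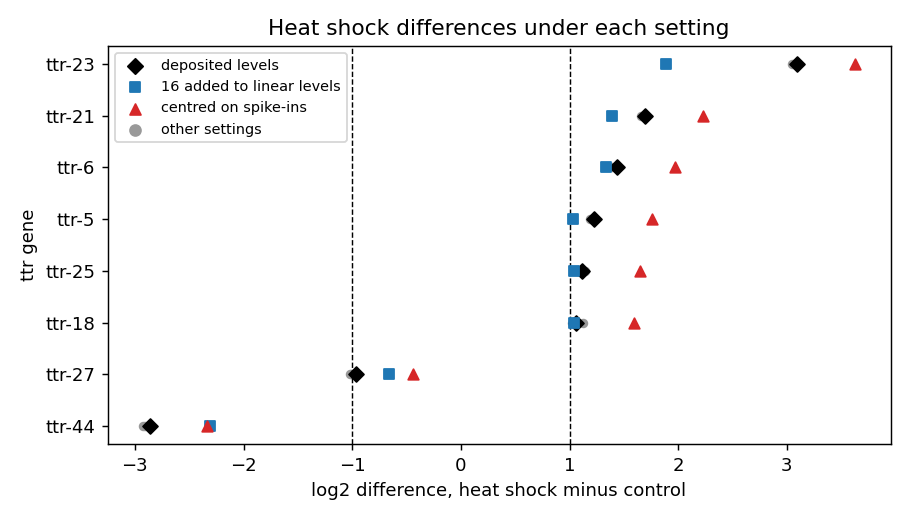
Log2 difference of heat shock from control (x axis) for the 7 ttr genes beyond 2-fold and ttr-27 (y axis) with the deposited levels, with 16 added to the linear levels, with centring on the spike-in probe sets and under the other settings, 1 point each. No point of the 6 higher genes falls below 1.02, ttr-44 stays at or below −2.31, and ttr-27 crosses the line at −1 in 2 settings.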

How the data were processed

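The deposited table holds log2 levels, 1 per probe set and array, made by the authors with GCRMA, per the submitters' processing notes; its version and options are not given in the sources used here. GCRMA as usually run corrects background from probe sequence and quantile-normalizes, so dim levels sit on a floor. The log2 scale was read from the values, and 200 ng of RNA per sample was amplified, per the labels' protocols. Gene names came from the platform annotation, which gives several symbols for 887 probe sets and none for 972; all 40 ttr genes were found in RefSeq. The number of columns of no sample was 0.

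Levels were subtracted in 3 comparisons, with no test, 1 array standing for each group. Genes described are those at least 2-fold apart, the 5 highest and 5 lowest in each comparison with control, the 5 brightest on the control array, ttr-52, and list members at least 2-fold apart, else the 3 with the largest difference; other members serve counts, ranges, neighbours and partners of TTR-52 and were chosen with values known. Members and lists were chosen with earlier results of these data known. Alternatives were quantile, median and loess (span 0.3) centring, level filters (none, percentile 75, both arrays), an offset of 16, thresholds of 1.5-fold and 3-fold, means over probe sets, and no shared probe sets. Spike-in centring and inclusion of probe sets of several ttr genes were chosen after seeing the data. The counting step was tested on simulated data. No sequence was used here, so planned protein and promoter descriptions were not made. Python 3.11.15, numpy 2.4.6, pandas 2.3.3, statsmodels 0.14.6 and matplotlib 3.10.9 were used.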

Additional observations from a re-analysis of the deposited data

How the results depend on the processing

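No paired analysis was possible because each group has 1 array. After bio-electrospray the counts of ttr genes at least 2-fold apart were 0 in both directions under all 13 alternatives, and the median was within 0.1 of 0 except with spike-in centring (0.188, the same shift as for all genes). In heat shock against control the count of higher genes was 11 with a 1.5-fold threshold (17.7% of all genes), 2 with a 3-fold threshold (3.58%) and 11 with spike-in centring (21.1%). That of lower genes was 2 with quantile normalization (8.49% of all genes), median centring (8.76%) or a 1.5-fold threshold (15.02%). Without shared probe sets it was 0 (7.72%), since ttr-44 has no other. The median was 0.0091 without the level filter, which adds 10 dim genes, and 0.845 with spike-in centring. For all genes it was −0.020 and 0.53 in these settings. In heat shock against bio-electrospray the higher genes numbered 13 at 1.5-fold (18.2% of all genes), 1 at 3-fold (3.35%) and 12 with spike-in centring (16.35%). The lower ones numbered 2 with quantile normalization (8.34%) or at 1.5-fold (14.1%) and 0 without shared probe sets (7.16%). There the median was 0.032 without the filter (−0.029 for all genes), 0.62 with spike-in centring (0.345) and 0.159 with probe sets of several ttr genes (0). Of the single-gene differences from control after heat, 175 of 197 stayed within the SD between probe sets of 1 gene, 22 moved further and none beyond 2-fold changed sign. Many of the 197 were fixed in advance, since level filters leave a gene's difference as it is. The treatments of probe sets changed only ttr-24 among the genes they kept. With spike-in centring every gene counted here moved further. Signals near the floor and the single array per group limit what these data can show.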

Other observations

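The 3 probe sets shared by several ttr genes, which belong to no single gene, were within 2-fold of control under both treatments. The probe set of ttr-30 and ttr-59 was at 6.27 on the control and bio-electrospray arrays and 6.30 on the heat shock array. That of ttr-3 and ttr-4 was at 4.21, 4.21 and 4.31, and that of ttr-49 and ttr-40 at 3.53, 3.48 and 3.10.

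The protein-coding genes beside the ttr genes that were 2-fold apart after heat were looked at after those values were seen. Next to ttr-6 (1.44), hic-1 was also higher, at 5.46 against 3.69, and fbxl-4 on the other side was at 6.19 against 5.75. Next to ttr-23 (3.09), T21C9.9 was lower by −0.93, at 3.12 against 4.05, and srg-32 was below the array median on all 3 arrays. Both neighbours of ttr-21, hpx-2 and srx-134, were below it too. Beside ttr-5, ufc-1 was at 7.38 against 7.32 and cepr-104.1 was dim on all arrays, and beside ttr-18, twk-5 was at 4.69 against 4.12. Next to ttr-44, frpr-5 was at 2.48 on every array. R11G10.3 beside ttr-44 and B0334.13 beside ttr-18 had no probe set of their own in the annotation, and both neighbours of ttr-25 are ttr genes. No difference among these was tested.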
